A study of Mus musculus with 13 samples.

Results

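The dual-specificity MAP kinase phosphatases Dusp1, Dusp2, Dusp4, Dusp5, Dusp6, Dusp7, Dusp8, Dusp10 and Dusp16 were followed through 13 RNA libraries of mouse microglia. They were picked by gene symbol from the 19737 genes of the expression table, and all 9 were listed in it. Of these, 8 reached the mean of 1 FPKM (fragments normalised to gene length and library depth) that a gene needed to be tested, as did 10817 genes in all. Dusp4 did not, and its values are given without a place in the genome-wide test.

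MAP kinases are switched on by phosphate on a threonine and a tyrosine in their activation loop. These phosphatases take off both, and so end ERK, JNK or p38 signalling. Several of them are themselves transcribed in response to MAP kinase activity, which closes a negative feedback loop, and in macrophages and microglia Dusp1 is best known for limiting p38, JNK and the inflammatory cytokine mRNAs that depend on them. By custom the family is split into inducible nuclear members (Dusp1, Dusp2, Dusp4 and Dusp5), cytoplasmic members that act on ERK (Dusp6 and Dusp7) and members directed at JNK and p38 (Dusp8, Dusp10 and Dusp16).

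The study asked what delivery of a circular RNA with double-stranded stretches to neurons, or loss of the double-stranded RNA sensor kinase PKR, does to microglia in 5xFAD mice, a transgenic Alzheimer model in which mutated human disease genes are driven by the neuronal Thy1 promoter. An EGFP control gene in the adeno-associated virus PHP.eB, a capsid that reaches the brain from the blood, was given to a wild-type group (n = 3) and a group of 5xFAD mice (n = 2). Another 5xFAD group (n = 4) received circPOLR2A in the same capsid, and a last group (n = 4) was 5xFAD with PKR knocked out, for which no vector is named. The construct suffix of circPOLR2A differs from library to library in the labels, while the design text of the series gives 1 suffix for the whole group, so whether all 4 libraries stand for the same construct is not settled. Numbered library names are given for the PKR knockout libraries alone, so the knockout, the vector and any difference in library making cannot be told apart for that group. Age, sex and the method of isolating the microglia are not given in the sources used here, nor is it said that each library came from its own animal. The p-values therefore measure the spread between these libraries.

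Depth recovered from the steps in the FPKM values was 45.3 to 69.9 M fragments per library and was highest in the PKR knockout libraries (57.8 to 69.9 M). The 7 microglia markers examined, among them P2ry12, Tmem119, Cx3cr1 and Csf1r, summed to 2765 to 5250 FPKM and none was at 0. Against wild type, Tmem119 was lower with EGFP, circRNA and PKR knockout in 5xFAD (log2 changes -1.07, -0.94 and -0.78) and P2ry12 was lower with PKR knockout (-0.94), while C1qa was higher with circRNA and PKR knockout (0.83 and 0.93). The astrocyte marker Gfap was higher in all 3 (1.72, 1.84 and 2.25), and Aqp4 was lower with PKR knockout. Eif2ak2, which encodes PKR, was at 3.3 to 4.6 FPKM in the knockout libraries, 6.5 and 6.6 with EGFP and 7.4 to 8.1 with circRNA in 5xFAD, and 4.1 to 5.2 in wild type, so the knockout libraries were the lowest of the 5xFAD libraries but overlapped wild type. Wild-type replicate 3 stood apart, with the lowest microglia sum (2765 FPKM) and the highest sums of neuron markers (13.2 FPKM against 3.16 to 11.4 elsewhere) and oligodendrocyte markers (1534 against 213 to 748). Its sums of astrocyte, endothelial and mural markers, at 309, 129 and 119 FPKM, were the highest too. Markers of endothelial cells, mural cells and border macrophages were lower in 5xFAD with EGFP than in wild type, in 4 of 5, 5 of 5 and 5 of 5 genes of each list. They were lower than in wild type also with PKR knockout, in 4, 5 and 5 of 5, and with circRNA, in 1, 4 and 5 of 5. Over all genes tested, 6.35% passed lower with EGFP, 19.4% with PKR knockout and 8.05% with circRNA against wild type. The part of these marker changes in the differences from wild type given below was not tested. In RNA of whole cell pools, fewer cells of a type and less RNA per cell cannot be told apart.

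Averaged over the 13 libraries, Dusp1 was the most abundant phosphatase of the family at 93.4 FPKM, at position 156 of the 19737 genes. Dusp6 followed at 65.8 FPKM and Dusp7 at 32.9 FPKM, at positions 221 and 524. The other 6 were far lower, with Dusp16 at 3.42, Dusp8 at 2.81, Dusp5 at 1.20, Dusp2 at 1.08, Dusp10 at 1.07 and Dusp4 at 0.242 FPKM. The ranges over the libraries overlapped between all neighbours in this order except Dusp7 and Dusp16, and Dusp10 and Dusp4. Dusp9, the remaining gene of the family, is not among the genes chosen and was listed at 0.015 to 0.136 FPKM, from 2 to 26 fragments. Every FPKM is per length of the gene, so these levels can be set beside each other. Counting error was at most 1.5% of the value for Dusp1, Dusp6 and Dusp7, but reached 14.4% for Dusp5 and 12.5% for Dusp2 in the libraries where they were lowest.

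**Figure D1:**
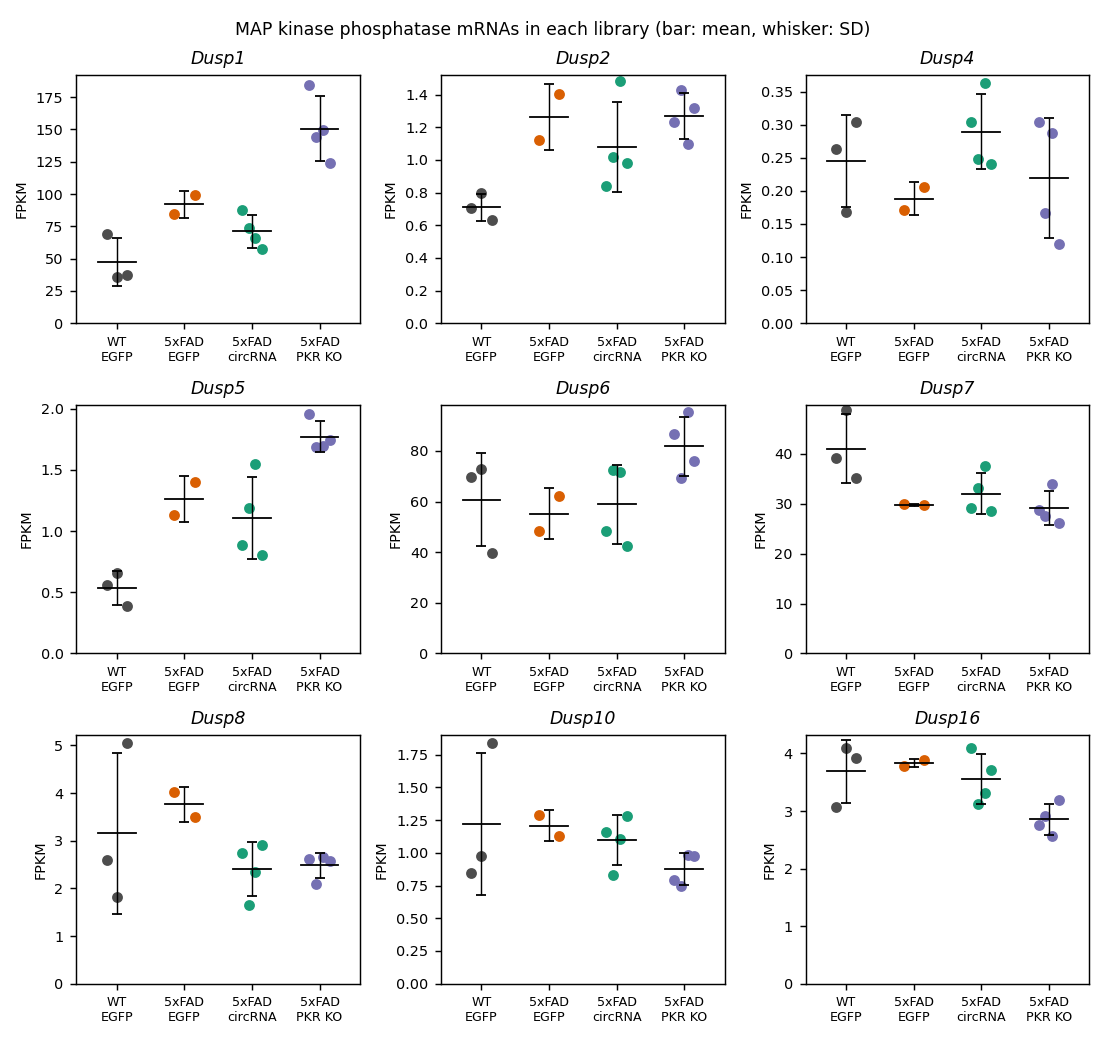
Level of each of the 9 phosphatase mRNAs (y axis, FPKM, from 0) in the 4 groups (x axis), with a point for each library, a bar for the mean and whiskers for the SD. Dusp1 lies at 124 to 185 FPKM in the 4 PKR knockout libraries, above the other 9, and Dusp5 lies below 0.7 FPKM in the 3 wild-type libraries and above 0.8 in the other 10.

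Dusp1, Dusp5 and Dusp2 were higher in 5xFAD with EGFP than in wild type. Dusp7 was lower in 5xFAD with PKR knockout than in wild type (log2 change -0.47), but hardly differed from 5xFAD with EGFP (-0.04). The stretches just before the start sites of these genes are shown here side by side with any match to the known response elements searched. They are RefSeq promoter windows on GRCm38.p6, written 5′ to 3′ on the strand of the gene and cut where an exon of a protein-coding gene begins. Capitals mark the matches. The search, on both strands of the 250 bases before the start, covered the cyclic AMP response element TGACGTCA and its core TGACG, which is part of the full element, the AP-1 site TGANTCA, the CArG box bound by serum response factor, the NF-kB site and the ETS site ACCGGAAGT.
Dusp1, chr17:26508520-26508722, minus strand: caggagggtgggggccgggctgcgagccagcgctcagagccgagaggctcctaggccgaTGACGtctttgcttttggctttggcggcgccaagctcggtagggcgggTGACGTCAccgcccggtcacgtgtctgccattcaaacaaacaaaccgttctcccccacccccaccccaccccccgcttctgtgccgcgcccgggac
Dusp5, chr19:53528895-53529108, plus strand: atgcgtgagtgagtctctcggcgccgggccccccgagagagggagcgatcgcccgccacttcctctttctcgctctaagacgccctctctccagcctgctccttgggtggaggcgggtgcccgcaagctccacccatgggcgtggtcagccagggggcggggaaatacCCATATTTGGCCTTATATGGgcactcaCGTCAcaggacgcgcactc
Dusp2, chr2:127335909-127336158, plus strand: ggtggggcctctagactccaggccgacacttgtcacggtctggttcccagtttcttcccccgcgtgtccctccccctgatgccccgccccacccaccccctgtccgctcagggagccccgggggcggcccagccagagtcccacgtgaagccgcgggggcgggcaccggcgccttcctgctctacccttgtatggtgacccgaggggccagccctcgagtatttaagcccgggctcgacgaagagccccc
Dusp7, chr9:106368382-106368631, plus strand: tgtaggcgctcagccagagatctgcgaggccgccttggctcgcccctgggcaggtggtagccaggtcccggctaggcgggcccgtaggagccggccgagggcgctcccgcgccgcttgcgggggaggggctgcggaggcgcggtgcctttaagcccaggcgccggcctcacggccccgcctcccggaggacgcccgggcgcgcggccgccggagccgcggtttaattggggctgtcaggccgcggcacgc
Dusp1 holds the full cyclic AMP response element at positions -143 to -136, counted back from the start site, and a further core at -191 to -187. Dusp5 holds CArG boxes side by side at -82 to -73 and -72 to -63, and a core on the other strand at -55 to -51. None of the searched motifs was found in the windows of Dusp2, Dusp6, Dusp7 and Dusp10. Dusp16 holds only a core at -70 to -66, while Dusp8 holds the full element at -107 to -100 and at -63 to -56, before a RefSeq start that no GENCODE transcript shares. Over all 32851 promoter windows, 1.55% hold the full element, 17.8% the core, 6.75% the AP-1 site, 1.47% a CArG box, 7.25% the NF-kB site and 0.804% the ETS site. These are letter matches and not measured binding, and 8 of the 9 genes were matched to a window.

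Compared with wild type, 5xFAD microglia with EGFP had more mRNA of 3 inducible nuclear phosphatases, Dusp1, Dusp5 and Dusp2. These 3 of the 8 tested members passed at an adjusted p of 0.05 (limma), where 14% of all genes tested passed (7.65% higher and 6.35% lower in 5xFAD). The groups did not overlap for 4 of 8 members, 3 higher and Dusp7 lower, against 37.6% of all genes (16.5% higher, 21.1% lower). Without wild-type replicate 3, which stood apart, 4 of 8 passed (Dusp1, Dusp5, Dusp7 and Dusp8) against 18.5% of all genes. Without EGFP replicate 1 or 2 of 5xFAD, 0 of 8 did, against 6.16% and 5.23% of all genes. Between circRNA and EGFP in 5xFAD, 0 of 8 members passed, as did 0% of all genes, with 0 members and 523 of all genes at an unadjusted limma p under 0.05 and 0 calls by voom. The groups did not overlap for 1 of 8, Dusp8, which was lower, against 19.3% of all genes (16.6% higher, 2.65% lower). Between PKR knockout and EGFP in 5xFAD, 0 of 8 passed against 0.0832% of all genes, and 3 members (Dusp1, Dusp5 and Dusp16) had an unadjusted limma p under 0.05, as did 1404 genes in all. The groups did not overlap for 6 of 8 members, with Dusp1, Dusp5 and Dusp6 higher and Dusp8, Dusp10 and Dusp16 lower, against 34.8% of all genes (17.7% higher, 17% lower). The fit across all libraries recovered 87% to 95.5% of genes simulated with a change of 1 log2 unit, but only 39% to 68.5% of those with 0.5, so a count of 0 does not show that members were alike. These rates are for 200 genes drawn at random with independent noise, and not for the members themselves.

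Against wild type, 1 of 8 members passed with circRNA (Dusp5), where 25.8% of all genes did (17.8% higher, 8.05% lower), and 5 of 8 with PKR knockout, where 37% of all genes did (17.5% higher, 19.4% lower). The 5 were Dusp1, Dusp5 and Dusp2, which rose, and Dusp7 and Dusp16, which fell. With circRNA the groups did not overlap for 2 of 8 members, both higher, against 28.2% of all genes (20.2% higher, 8% lower). With PKR knockout they did not overlap for 4 of 8, 3 higher and 1 lower, against 40.9% (19.8% higher, 21.1% lower). Without wild-type replicate 3 the counts passing were 2 of 8 with circRNA, against 23.8% of all genes, and 4 of 8 with PKR knockout, against 35% of all genes. Between circRNA and PKR knockout, Dusp1 and Dusp5 passed, both lower with circRNA, so 2 of 8 members against 6.19% of all genes (4.28% higher, 1.91% lower). The same 2 were the members whose groups did not overlap, against 19.5% of all genes (15.1% higher, 4.44% lower). The median log2 change of the 8 members lay between -0.10 and 0.16 in the 6 comparisons and that of all genes between -0.05 and 0.08. The comparisons share groups: each of the 4 groups enters 3 of the 6, so a library that is high or low moves several of them at once.

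**Figure D2:**
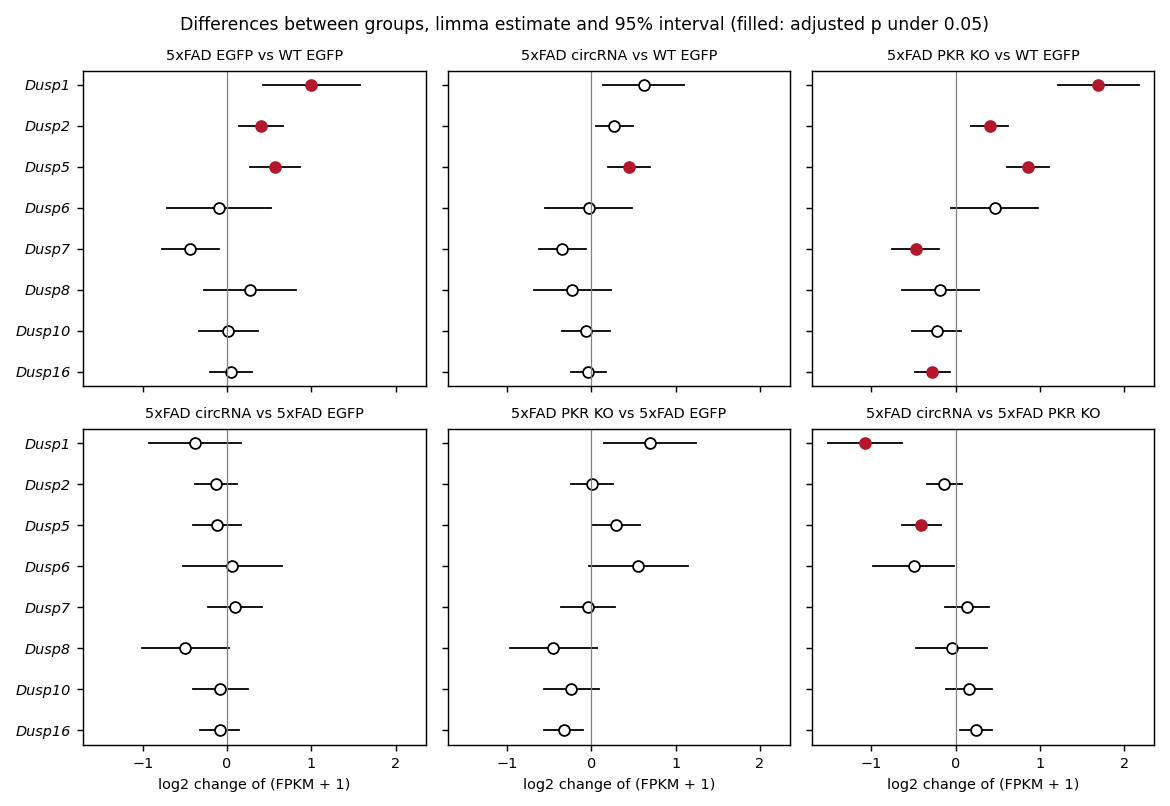
Log2 change of FPKM + 1 (x axis) of each tested phosphatase (y axis) in the 6 comparisons, 1 panel each, with the limma estimate as a circle and its 95% confidence interval as a line. Circles are filled where the adjusted p is under 0.05, which is the case for Dusp1, Dusp2, Dusp5, Dusp7 and Dusp16 in PKR knockout against wild type and for no phosphatase in circRNA or PKR knockout against 5xFAD with EGFP.

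Dusp1 encodes MKP-1, a nuclear phosphatase that acts on p38 and JNK and to a lesser degree on ERK. It was at 68.8, 36.1 and 37.5 FPKM in wild type, at 84.4 and 99.6 in 5xFAD with EGFP, at 88.0, 73.4, 65.7 and 57.4 with circRNA and at 185, 144, 150.0 and 124 with PKR knockout. The 4 knockout libraries were above all others, the 2 EGFP libraries of 5xFAD were above wild type, and the circRNA libraries overlapped both the wild-type and the EGFP libraries. The group means were 47.5 ± 18.5 (SD, n = 3), 92.02 ± 10.7 (n = 2), 71.1 ± 13.0 (n = 4) and 150.7 ± 25.3 FPKM (n = 4).

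In 5xFAD with EGFP, Dusp1 was 1.94 times its wild-type mean, a log2 change of 1.00 (SE 0.26, 95% interval 0.43 to 1.57, limma adjusted p = 0.024). This call rested on single libraries: the limma adjusted p was 0.069 without wild-type replicate 2 (change 0.84), 0.083 without 5xFAD EGFP replicate 1 (1.12) and 0.20 without 5xFAD EGFP replicate 2 (0.88), and 0.14 when the 2 groups were fitted alone. With PKR knockout, Dusp1 rose to 3.17 times the wild-type mean (log2 change 1.69, SE 0.22, limma adjusted p = 0.00011), and each of the fits without 1 library kept that call. Dusp1 was lower with circRNA than with PKR knockout by -1.07 on the log2 scale (SE 0.20, limma adjusted p = 0.015, groups apart), which became 0.054 without PKR knockout replicate 1 (change -0.97).

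The 2 treatments set against 5xFAD with EGFP pointed in opposite directions for Dusp1, and neither passed. The log2 change was 0.70 with PKR knockout (SE 0.25, 95% interval 0.15 to 1.24, limma adjusted p = 0.27, groups apart) and -0.38 with circRNA (SE 0.25, interval -0.92 to 0.16, limma adjusted p = 0.74, groups overlapping). With the PKR knockout and EGFP groups fitted alone the limma adjusted p was 0.043. Against wild type, circRNA libraries had a log2 change of 0.62 that missed the threshold (limma adjusted p = 0.057, groups overlapping), and passed it without wild-type replicate 1 (change 0.91, limma adjusted p = 0.0046) or without circRNA replicate 4 (0.72, 0.041).

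Early response genes that are known to be induced when brain tissue is taken apart were set beside Dusp1, which responds to such handling too. The summed FPKM of 14 of them (Fos, Fosb, Jun, Junb, Jund, Egr1, Ier2, Atf3, Btg2, Nr4a1, Zfp36, Hspa1a, Hspa1b and Socs3) was 857 to 1367 in wild type, 1458 and 1555 in 5xFAD with EGFP, 961 to 1371 with circRNA and 1782 to 2184 with PKR knockout. The knockout libraries were thus above all others in this sum as in Dusp1. Within groups the libraries stood in the same order by both in the circRNA and 5xFAD EGFP groups, but not in the wild-type and PKR knockout groups, where replicates 2 and 3 changed places. None of the 14 was at 0 in any library. All 14 were tested: 4 were higher and 0 lower in 5xFAD with EGFP than in wild type (median log2 change 0.50), 11 were higher and 2 lower with PKR knockout than in wild type (1.29), and 0 were higher and 12 lower with circRNA than with PKR knockout (-0.99), against medians of all genes of -0.03, -0.05 and 0.08 and shares called of 14%, 37% and 6.19%. The 2 lower with PKR knockout were the heat shock genes Hspa1a and Hspa1b, with log2 changes of -1.25 and -1.32. With circRNA against wild type 2 were higher and 1, Nr4a1, lower, where 25.8% of all genes passed. Their median log2 change there was 0.08, while Dusp1 was at 0.62. Against 5xFAD with EGFP, 0 of the 14 passed with circRNA (median -0.42) or with PKR knockout (0.49), where 0% and 0.0832% of all genes did. The part of tissue handling in the Dusp1 differences was not tested.

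**Figure D3:**
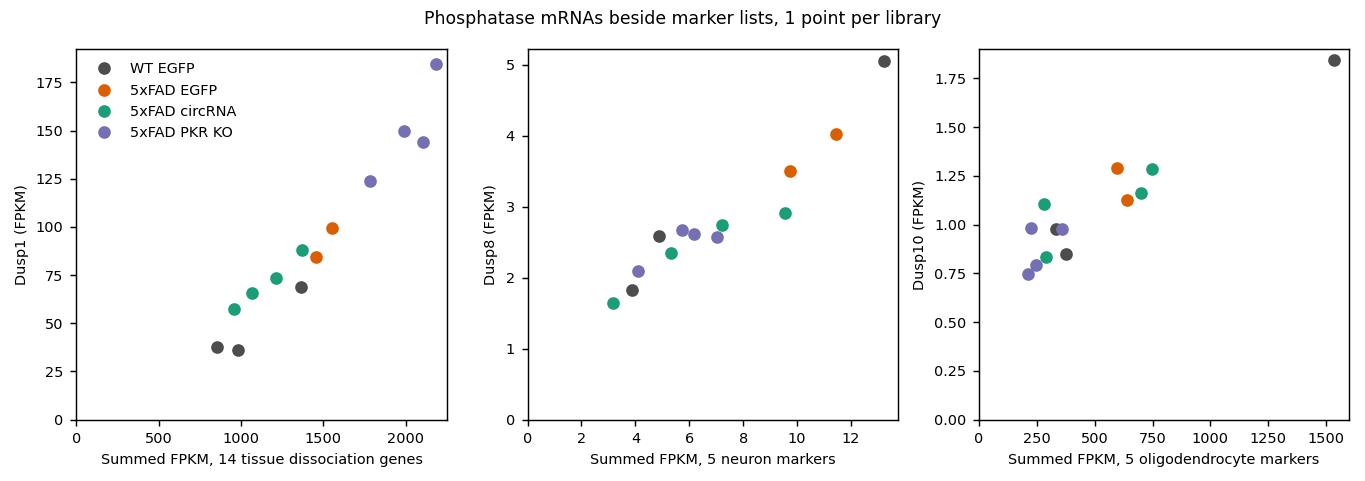
Dusp1 against the summed level of 14 tissue dissociation genes (left), Dusp8 against 5 neuron markers (middle) and Dusp10 against 5 oligodendrocyte markers (right), all in FPKM from 0, with a point for each of the 13 libraries in the colour of its group. The 4 PKR knockout libraries are highest on both axes of the left panel, and wild-type replicate 3 is highest on both axes of the middle and right panels.

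Dusp5 encodes a nuclear phosphatase specific for ERK, and its promoter window carries the paired CArG boxes shown above. It was at 0.556, 0.662 and 0.385 FPKM in wild type, at 1.13 and 1.40 in 5xFAD with EGFP, at 0.886, 1.19, 1.55 and 0.805 with circRNA and at 1.95, 1.69, 1.70 and 1.75 with PKR knockout. Every 5xFAD library was above every wild-type library and every knockout library was above all others, though the gene was low, with 48 to 292 fragments per library. The log2 change against wild type was 0.56 with EGFP (SE 0.14, limma adjusted p = 0.017), 0.45 with circRNA (SE 0.11, adjusted p = 0.013 in limma) and 0.86 in the knockout (SE 0.11, limma adjusted p = 0.00014). The ratios of mean FPKM were 2.37, 2.07 and 3.32.

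The Dusp5 call with PKR knockout against wild type was kept in all 7 fits without 1 library, and other calls were less firm. In 5xFAD with EGFP against wild type the limma adjusted p was 0.055 without EGFP replicate 1 (change 0.65) and 0.17 without EGFP replicate 2 (0.48). With circRNA against wild type, all 7 fits that left out 1 library kept the call, with the limma adjusted p at most 0.047, while it was 0.26 after quantile normalization (change 0.24), 0.059 with library weights (0.29) and 0.063 with the 2 groups fitted alone (0.45). Dusp5 was also lower with circRNA than with PKR knockout, by -0.41 on the log2 scale (SE 0.11, limma adjusted p = 0.044, groups apart). That call held in 1 of 8 fits without a library: the limma adjusted p was 0.025 without circRNA replicate 3, and 0.12, 0.055 and 0.087 without circRNA replicates 1, 2 and 4, and 0.12, 0.095, 0.085 and 0.072 without PKR knockout replicates 1, 2, 3 and 4, at changes of -0.34 to -0.50. Against 5xFAD with EGFP, the change was 0.29 with PKR knockout (limma adjusted p = 0.37, groups apart) and -0.12 with circRNA (limma adjusted p = 0.78, 95% interval -0.40 to 0.17).

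Dusp2, or PAC-1, is a nuclear phosphatase found mainly in immune cells. It was at 0.703, 0.796 and 0.633 FPKM in wild type, at 1.12 and 1.40 in 5xFAD with EGFP, at 0.843, 1.02, 1.48 and 0.980 with circRNA and at 1.23, 1.43, 1.10 and 1.32 with PKR knockout. All 10 libraries of 5xFAD mice were above the 3 of wild type, on 64 to 200 fragments each, and the 3 groups of 5xFAD overlapped. Against wild type the log2 change was 0.40 with EGFP (SE 0.12, limma adjusted p = 0.044) and 0.41 with PKR knockout (SE 0.10, limma adjusted p = 0.0082). The first was lost on leaving out any of its 5 libraries, with a limma adjusted p of 0.095, 0.051 and 0.073 without wild-type replicates 1, 2 and 3 and 0.088 and 0.33 without EGFP replicates 1 and 2 (changes 0.31 to 0.49), and the second was kept in all 7 such fits. With circRNA the change was 0.27 (limma adjusted p = 0.066, groups apart) and passed only without circRNA replicate 1 (change 0.33, limma adjusted p = 0.044). Between 5xFAD groups the estimates were small: 0.01 with PKR knockout against EGFP (95% interval -0.24 to 0.25) and -0.13 with circRNA against EGFP (-0.38 to 0.12).

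Dusp4, or MKP-2, a nuclear phosphatase of ERK and JNK, was close to the limit of detection with 20 to 54 fragments per library. Its range was 0.168 to 0.304 FPKM in wild type, 0.171 to 0.206 in 5xFAD with EGFP, 0.241 to 0.363 with circRNA and 0.119 to 0.304 with PKR knockout. The circRNA libraries were above the EGFP libraries, and all other pairs of groups overlapped. In exact two-sided permutation tests on FPKM the smallest of 6 p-values was 0.13 (circRNA against EGFP), and the adjusted p-values were 0.64 to 0.73. The smallest p these tests can give was 0.1 for EGFP against wild type and 0.067 for circRNA or PKR knockout against EGFP. It was 0.029 for each of the other comparisons. With so few libraries no p adjusted over the 6 tests could fall under the threshold, whatever the values. The tests therefore cannot decide whether Dusp4 differed between groups.

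Dusp6, or MKP-3, is the cytoplasmic phosphatase of ERK and a standard readout of ERK activity. It was at 69.8, 72.7 and 39.6 FPKM in wild type, at 48.2 and 62.3 in 5xFAD with EGFP, at 48.5, 72.6, 71.8 and 42.6 with circRNA and at 86.8, 69.2, 95.4 and 75.9 with PKR knockout. The wild-type, EGFP and circRNA libraries covered the same range, and the PKR knockout libraries were above both EGFP libraries but overlapped the other groups. No comparison passed for it. The log2 change was -0.10 with EGFP against wild type (95% interval -0.72 to 0.52, limma adjusted p = 0.87), 0.46 with PKR knockout against wild type (limma adjusted p = 0.15), 0.56 with PKR knockout against EGFP (interval -0.03 to 1.15, limma adjusted p = 0.40) and -0.50 with circRNA against PKR knockout (limma adjusted p = 0.18, and 0.0099 when libraries were weighted by quality).

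Dusp7, or MKP-X, also acts on ERK in the cytoplasm and was the member with the clearest difference in the other direction. It was at 39.2, 48.7 and 35.1 FPKM in wild type, at 30.0 and 29.6 in 5xFAD with EGFP, at 29.1, 33.1, 37.5 and 28.5 with circRNA and at 28.7, 27.5, 34.0 and 26.2 with PKR knockout. Only circRNA replicate 3, at 37.5, reached into the wild-type range. Dusp7 fell with PKR knockout against wild type by 0.47 on the log2 scale (SE 0.13, limma adjusted p = 0.014, groups apart), and the limma adjusted p was 0.059 without wild-type replicate 2 (change -0.35). It did not pass with EGFP (-0.43, SE 0.16, limma adjusted p = 0.088, groups apart) or with circRNA (-0.34, SE 0.13, limma adjusted p = 0.073, groups overlapping).

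Both of those Dusp7 values passed under other settings. Without wild-type replicate 3 the change was -0.54 with EGFP (limma adjusted p = 0.032) and -0.45 with circRNA (0.030), and without circRNA replicate 3 the latter was -0.42 (0.037). After quantile normalization they were -0.61 (limma adjusted p = 0.0048) and -0.64 (0.00064). Rescaling all libraries to the same FPKM sum moved the median of all genes to -0.17 with EGFP, -0.20 with circRNA and -0.24 with PKR knockout against wild type, and under it Dusp7 was at -0.61, -0.63 and -0.70, further down than that median, and Dusp1 at 0.83, 0.33 and 1.47, above it. Between 5xFAD groups Dusp7 hardly differed, at 0.09 for circRNA against EGFP (95% interval -0.23 to 0.41) and -0.04 for PKR knockout against EGFP (-0.36 to 0.28).

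Dusp16, or MKP-7, keeps JNK in check and moves between nucleus and cytoplasm. It was at 3.06, 4.09 and 3.92 FPKM in wild type, at 3.78 and 3.88 in 5xFAD with EGFP, at 4.10, 3.12, 3.31 and 3.72 with circRNA and at 2.75, 2.92, 2.56 and 3.19 with PKR knockout. The knockout libraries were low, but overlapped wild-type replicate 1 and circRNA replicate 2. Dusp16 fell with PKR knockout against wild type (log2 change -0.28, SE 0.10, limma adjusted p = 0.037). The limma adjusted p was 0.13 and 0.10 without wild-type replicates 2 and 3 and 0.078, 0.064 and 0.091 without PKR knockout replicates 1, 2 and 3 (changes -0.22 to -0.29), 0.092 after median-ratio scaling (-0.26), 0.18 after quantile normalization (-0.20), 0.051 with no filter and 0.065 with the 2 groups fitted alone. Against EGFP in 5xFAD the knockout gave -0.33 (SE 0.11, limma adjusted p = 0.24, groups apart), and circRNA gave 0.24 against the knockout (SE 0.09, limma adjusted p = 0.11).

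Dusp8, a phosphatase of JNK and p38 best known from neurons, was at 2.59, 1.83 and 5.04 FPKM in wild type, at 4.02 and 3.50 in 5xFAD with EGFP, at 2.75, 1.64, 2.34 and 2.91 with circRNA and at 2.61, 2.09, 2.67 and 2.57 with PKR knockout. Both EGFP libraries of 5xFAD were above all circRNA and knockout libraries, while the wild-type libraries, at 1.83 to 5.04, overlapped every other group. The log2 change was -0.50 with circRNA (95% interval -1.01 to 0.02, limma adjusted p = 0.74) and -0.45 with PKR knockout (interval -0.97 to 0.06, limma adjusted p = 0.43) against EGFP. Against wild type, the EGFP group was at 0.27 (limma adjusted p = 0.54), or at 0.58 without wild-type replicate 3 (0.037). The summed neuron markers (Snap25, Syt1, Rbfox3, Slc17a7 and Gad1) had their 4 highest values, of 13.2, 11.4, 9.74 and 9.54 FPKM, in the same libraries and order as Dusp8: wild-type replicate 3, 5xFAD EGFP replicates 1 and 2, and circRNA replicate 4. The part of neuronal RNA in the Dusp8 values was not tested.

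Dusp10, or MKP-5, acts on JNK and p38 and is known as a regulator of innate immune signalling. It was at 0.849, 0.976 and 1.84 FPKM in wild type, at 1.29 and 1.13 in 5xFAD with EGFP, at 1.16, 0.833, 1.11 and 1.28 with circRNA and at 0.792, 0.747, 0.980 and 0.976 with PKR knockout. Wild-type replicate 3 was highest, as it was for oligodendrocyte, neuron, astrocyte, endothelial and mural markers. The knockout libraries were below both EGFP libraries of 5xFAD. The 5 oligodendrocyte markers summed to 213 to 359 FPKM in the knockout libraries and to 597 and 641 in those EGFP libraries, with a median log2 change of -1.51 and 0 of 5 passing. Their part in the Dusp10 values was not tested. No comparison passed, with log2 changes of -0.24 to 0.16. The reads of Dusp1, Dusp5, Dusp8, Dusp10 and Dusp16 are less certain than those of the others, because a gene on the opposite strand overlaps each (among them Ergic1 at Dusp1 and 1700056E22Rik at Dusp10) and the strand setting of the counting is not given in the sources used here.

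By share of the summed FPKM, the family shifted towards Dusp1 in 5xFAD with EGFP or with PKR knockout, while circRNA libraries overlapped wild type. Dusp1 was 37.0%, 21.8% and 30.2% of the summed FPKM of the 9 genes in wild type, 48.5% and 49.1% in 5xFAD with EGFP, 50.1%, 39.2%, 35.5% and 41.5% with circRNA and 59.6%, 57.7%, 51.9% and 52.5% with PKR knockout. The share in the knockout libraries was above that in all others, and the wild-type shares were below those of all 5xFAD libraries except circRNA replicate 3. The share of Dusp7 went from 26.2% ± 4.5 in wild type (SD, n = 3) to 15.9% ± 1.8 with EGFP (n = 2), 18.8% ± 2.0 with circRNA (n = 4) and 10.8% ± 1.1 with PKR knockout (n = 4). That of Dusp6 was 37.7%, 29.2%, 34.0% and 30.2% in the same order. Dusp1 was below Dusp6 in all 3 wild-type libraries (ratio 0.497 to 0.985) and above it in all 6 EGFP and knockout libraries of 5xFAD (1.57 to 2.13), and the circRNA libraries lay on both sides (0.915 to 1.81). The 9 genes together summed to 158.8 ± 31.4 FPKM in wild type, 188.6 ± 20.4 with EGFP, 171.6 ± 22.7 with circRNA and 271.1 ± 34.3 with PKR knockout. A share of a sum falls when another gene rises, so these shares add no test to those above.

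**Figure D4:**
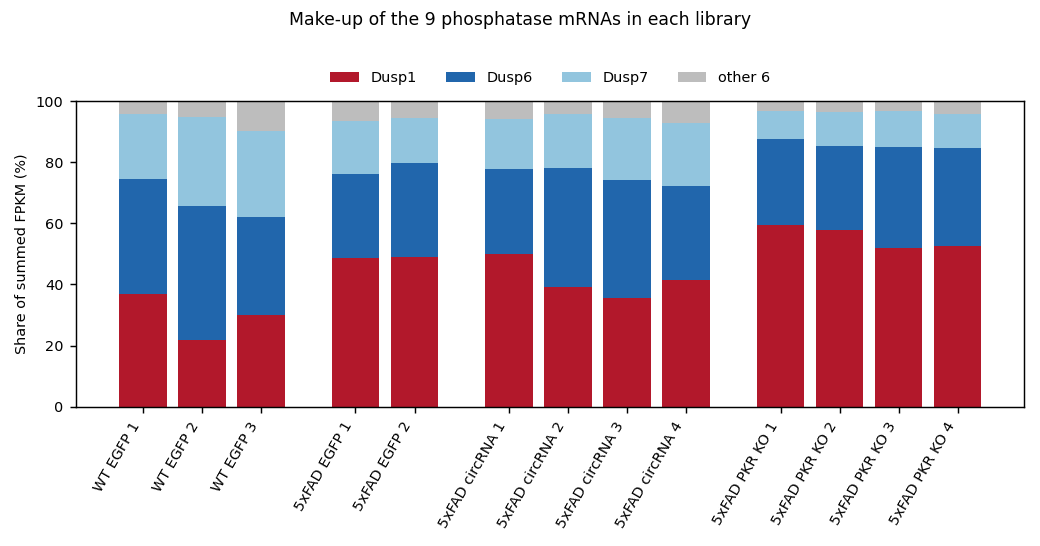
Share of the summed FPKM of the 9 phosphatase genes (y axis, percent) taken by Dusp1, Dusp6, Dusp7 and the other 6 together, in each of the 13 libraries (x axis). Dusp1 takes 21.8% to 37.0% in wild type and 51.9% to 59.6% with PKR knockout.

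Of 76 other genes of the MAP kinase pathways, 62 were tested, and their counts stand beside those of the phosphatases. In 5xFAD with EGFP against wild type 5 passed higher and 3 lower, which is 12.9% of the list against 14% of all genes. With circRNA against wild type 9 and 7 did (25.8% against 25.8%), with PKR knockout against wild type 16 and 15 (50% against 37%), and with circRNA against PKR knockout 4 and 10 (22.6% against 6.19%). None passed between circRNA or PKR knockout and EGFP. The median log2 change of the 62 was between -0.12 and 0.06 in the 6 comparisons, close to that of all genes.

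The kinases that the phosphatases act on moved in both directions, by less than 0.5 on the log2 scale. Mapk3, which encodes ERK1, rose with PKR knockout against wild type (46.3 ± 2.62 FPKM, n = 4, against 35.03 ± 0.92, n = 3, log2 change 0.39, limma adjusted p = 0.0072) and with circRNA (0.45, 0.0041). Mapk14, the main p38 kinase, and the JNK genes Mapk8 and Mapk9 fell with PKR knockout against wild type by 0.33, 0.31 and 0.21 on the log2 scale. Upstream in the ERK cascade, Nras, Araf, Braf and Ksr1 were lower in that comparison (-0.21 to -0.43), and Nras and Braf were higher with circRNA than with PKR knockout (0.34 and 0.29). With circRNA against wild type, Araf and Mapk14 were lower (-0.23 and -0.32). Map3k1, a kinase at the top of the JNK cascade, was higher than in wild type with circRNA (0.39) and with PKR knockout (0.48). The p38-activated kinase gene Rps6ka5 and the ERK5 activator Map2k5 were lower with PKR knockout than in wild type (-0.28 and -0.20).

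Downstream of p38, Mapkapk2, the kinase that stabilises many cytokine mRNAs, rose in all 3 comparisons with wild type, from 17.6 ± 2.83 FPKM (n = 3) to 31.2 ± 0.78 with EGFP (n = 2), 34.6 ± 3.64 with circRNA (n = 4) and 39.4 ± 4.47 with PKR knockout (n = 4). The log2 changes were 0.80, 0.94 and 1.12, and the related Mapkapk3 rose too, by 0.48, 0.49 and 0.65. Rps6ka1, which encodes the ERK-activated kinase RSK1, fell in the same 3 comparisons (-0.62, -0.52 and -0.47), as did the scaffold Ksr1 (-0.40, -0.42 and -0.43). Sprouty and Spred proteins are other brakes on ERK signalling. Of the 4 Sprouty and Spred genes tested, only Spred1 passed with PKR knockout against wild type, lower by a log2 change of -0.37, and it was higher with circRNA than with PKR knockout (0.34). Spred2 was higher with circRNA than in wild type (0.29). Of 9 atypical dual-specificity phosphatases tested, only Dusp22 passed, lower with circRNA (-0.26) and with PKR knockout (-0.38) than in wild type. Of 3 other phosphatases tested that act on MAP kinases, 0 passed in any of the 6 comparisons. Over all genes tested, 25.8% passed with circRNA and 37% with PKR knockout against wild type, and 6.19% between circRNA and PKR knockout.

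The transcription factors and early genes that MAP kinases switch on include many early response genes, like Dusp1 itself. Of 16 tested, 3 passed higher and 1 lower in 5xFAD with EGFP against wild type (Egr1, Egr2 and Phlda1, and Etv1). Of all genes, 7.65% passed higher and 6.35% lower there. With PKR knockout against wild type 11 passed higher and 2 lower, where 17.5% and 19.4% of all genes did. With circRNA against PKR knockout 0 passed higher and 10 lower, where 4.28% and 1.91% of all genes did. The 11 were Fos, Fosb, Jun, Junb, Jund, Egr1, Egr2, Ier3, Phlda1, Elk3 and Myc (0.48 to 2.28), and the 10 were Fos, Fosb, Fosl2, Jun, Junb, Jund, Egr1, Egr2, Ier3 and Phlda1 (-0.47 to -1.49). With circRNA against wild type, Egr2, Phlda1 and Elk3 were higher (1.65, 0.92 and 0.49) and Fosl2 and Etv1 lower (-0.50 and -0.52). Egr2 went from 1.63 ± 0.46 FPKM in wild type (n = 3) to 8.10 ± 0.69 with EGFP (n = 2), 7.24 ± 1.31 with circRNA and 11.7 ± 1.4 with PKR knockout (n = 4 each). Fos went from 72.1 ± 25.8 in wild type to 173 ± 25.5 with PKR knockout (log2 change 1.30, limma adjusted p = 0.0013) and was at 66.3 ± 18.3 with circRNA. The ETS factors Etv1 and Etv5, often used as ERK readouts, were lower with PKR knockout than in wild type (-0.78 and -0.42). Between PKR knockout and EGFP in 5xFAD, 0 of the 16 passed. The list shares 6 genes with the tissue dissociation list (Fos, Fosb, Jun, Junb, Jund and Egr1), so the counts are not separate from those given for it.

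Over the 13 libraries, the genes whose log2 levels followed each phosphatase most closely, among 4962 genes averaging 5 FPKM or more, differed between members. For Dusp1 they included Btg2 (Pearson r = 0.97) and Zfp36 (0.96). For Dusp5 they were Nfkbib (0.95), Osm (0.95) and Tpcn2 (0.95), and for Dusp2 Anxa3 (0.88), Chst12 (0.87) and Tpcn2 (0.87). Dusp6 was nearest to Rnf166 (0.92), Mlec (0.91) and Rin3 (0.91), and Dusp7 to Susd3 (0.96), Maf (0.95) and Prkab1 (0.95). Dusp8 was nearest to Nsmf (0.97), Kifc2 (0.97) and Hpcal4 (0.96), Dusp10 to Carhsp1 (0.95), Apbb1 (0.94) and Gm20458 (0.94), and Dusp16 to Clasp2 (0.85), Luc7l2 (0.84) and Tmem88b (0.80). These values describe the 13 libraries, which share groups and depth, and the highest of 4962 values is high by selection.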

How the data were processed

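Ribosomal RNA was depleted from microglial RNA extracted with TRIzol, and stranded total RNA libraries were sequenced on a NovaSeq instrument, per the labels' protocols. The authors deposited 1 table of FPKM for 19737 genes in 13 libraries. HISAT2 2.1.0, Bowtie2 2.3.5, featureCounts 1.5.1 and build mm10 are named in the submitters' processing notes, while their order, the annotation and the strand setting are not given in the sources used here. Gene positions and lengths are from GENCODE M21 (GRCm38). With the union of exon lengths, which 98.4% of genes had, 91.2% to 93.1% of low values were whole fragments within 0.02 of a fragment (4% by chance), which gave the depth of each library, 45.3 to 69.9 M fragments. Fragment-based counting errors cover counting only.

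Log2(FPKM + 1) of genes averaging 1 FPKM or more was fitted with limma 3.58.1 in R 4.3.3, in 1 model with 4 group means, 9 residual degrees of freedom and an intensity trend, and p-values were adjusted by Benjamini-Hochberg over all 10817 genes within each of 6 comparisons. Log2 changes understate those of genes near 1 FPKM, such as Dusp2 and Dusp5. FPKM are not counts, so no count test was the main result. Dusp4 was tested by exact permutation, adjusted over 6 tests. The alternatives were a pseudocount of 0.1, no filter, a mean of at least 5 FPKM, 3 other scalings, 2 groups alone, a replicate block, library weights (arrayWeights), each library left out, and voom on the recovered fragments, which was added after seeing the data. The fit was tested on simulated data for all 10817 genes, 200 of them changed.

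The members and gene lists were chosen with earlier results of these data known. All members are named, as are list genes that passed where a member did, and the 3 genes most like each member. A few list genes and 1 of the genes most like Dusp1 are not reported here by name, though they remain in the counts and sums.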

Additional observations from a re-analysis of the deposited data

Results flagged for a closer look

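Dusp8 in PKR knockout replicate 2, at 2.09 FPKM, lay apart from the other 3 libraries of its group at 2.57 to 2.67 FPKM. The gap to its nearest neighbour was 0.835 of the range of the group, above Dixon's 95% critical value for 4 libraries. Of the 18 groups of 4 libraries examined this was the one that passed it, and chance passes it in about 1 of 20.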

How the results depend on the processing

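Over the tested members, 656 values under an alternative kept their direction and their side of the threshold, 41 lost a call, 24 gained one and 41 changed sign, all of the last in uncalled values. The filter of 5 FPKM leaves Dusp2, Dusp5, Dusp8, Dusp10 and Dusp16 untested, and fits without 1 library rest on fewer libraries. Otherwise the cause of a change was not tested. With 2 libraries in the 5xFAD EGFP group, and 1 when the other is left out and assumed to vary like the other groups, comparisons with it are the least certain. Counting error limits Dusp2, Dusp4, Dusp5 and Dusp10.

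Percentages in brackets are the share of all genes that passed at the same setting. The count of members passing in 5xFAD EGFP against wild type, 3 (14%), became 1 with a mean of at least 5 FPKM (17.4%) and 0 with 2 groups alone (4.71%). It was 1 to 4 without 1 wild-type library (10.3% to 18.5%). With no filter it was 2 (10.4%, Dusp2 lost, limma adjusted p = 0.054). Quantile normalization gave 2 (18.2%), losing Dusp2 (limma adjusted p = 0.18) and Dusp5 (0.12) and adding Dusp7. Rescaling (34.3%) and library weights (20.7%) gave 4, adding Dusp7. In PKR knockout against EGFP, 0 (0.0832%) became 2 with 2 groups alone (5.33%, Dusp1 and Dusp8) and 1 with library weights (7.6%, Dusp16). In circRNA against wild type, 1 (25.8%) became 2 with median-ratio scaling (30.3%), rescaling to the same sum (52.5%), the replicate block (24.8%), library weights (27.2%) and voom (25%). It became 0 with 2 groups alone (15.9%) and 1 to 2 without 1 library (20.1% to 26.5%). The members differed: library weights gave Dusp1 and Dusp7 without Dusp5, both scalings added Dusp7, and the block and voom added Dusp1. The count stayed 1 with quantile normalization (29.2%) but was Dusp7, and with the filter of 5 FPKM (35.3%) but was Dusp1. In PKR knockout against wild type, 5 (37%) became 2 at the filter of 5 FPKM (39%) and 3 to 5 without 1 library (28.7% to 35.6%). It was 4, without Dusp16, with no filter (31.1%), median-ratio scaling (41.2%), quantile normalization (35.9%) and 2 groups alone (29.7%). In circRNA against PKR knockout, 2 (6.19%) became 1 with a pseudocount of 0.1 (6.49%), no filter (2.45%), the filter of 5 FPKM (6.22%) and the replicate block (4.14%). It became 5 with library weights (29.2%) and 0 to 2 without 1 library (1.36% to 4.68%). In circRNA against EGFP it was 0 throughout.

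These uncalled log2 changes turned sign. With rescaling to the same sum they were, against wild type, -0.0830 for Dusp10 and -0.0899 for Dusp16 with EGFP, and against EGFP -0.0513 for Dusp6 and -0.0211 for Dusp7 with circRNA and -0.0297 for Dusp2 with PKR knockout. Dusp6 and Dusp7 in circRNA against EGFP were -0.0368 and -0.00674 with median-ratio scaling and -0.0517 and -0.0282 with quantile normalization. With library weights Dusp6 was -0.0972 in circRNA against EGFP, Dusp8, Dusp10 and Dusp16 were 0.119, 0.0964 and 0.0412 in circRNA against wild type, and Dusp8 was 0.0626 in PKR knockout against wild type and 0.0559 in circRNA against PKR knockout. The difference of Dusp4 in circRNA against wild type was -0.0107 FPKM after rescaling.

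Without 1 library, ranges that crossed 0 were, in 5xFAD EGFP against wild type, -0.373 to 0.0847 for Dusp6, -0.103 to 0.207 for Dusp10 and -0.0500 to 0.112 for Dusp16. They were -0.117 to 0.245 for Dusp6 in circRNA against EGFP, and -0.0858 to 0.0962 for Dusp2 and -0.114 to 0.00766 for Dusp7 in PKR knockout against EGFP. In circRNA against wild type they were -0.309 to 0.1201 for Dusp6, -0.466 to 0.0821 for Dusp8, -0.182 to 0.128 for Dusp10 and -0.138 to 0.0242 for Dusp16. For Dusp8 they were -0.422 to 0.126 in PKR knockout against wild type and -0.115 to 0.0730 in circRNA against PKR knockout, and for Dusp4 -0.0640 to 0.00761 FPKM in PKR knockout against wild type.

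Over all genes, the 11 settings called 509 to 3709 in 5xFAD EGFP against wild type, 0 to 822 in PKR knockout against EGFP, 1725 to 5676 in circRNA against wild type, 1934 to 6595 in PKR knockout against wild type and 309 to 3161 in circRNA against PKR knockout.

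After removing group means, libraries numbered 2 correlated at 0.17 to 0.69 in all 6 comparisons, and those of other same numbers at -0.42 to 0.38. Nothing in the labels ties the numbers to a shared litter or day, and not every pair passed 0.1 in any comparison of 3 or more pairs, so the libraries were not treated as paired. The replicate block ended the calls of Dusp2 in 5xFAD EGFP against wild type (0.067 as limma's adjusted p) and Dusp5 in circRNA against PKR knockout (0.063) and added that of Dusp1 in circRNA against wild type (0.015). Under it Dusp6 in circRNA against wild type was 0.0535 and Dusp2 in PKR knockout against EGFP was -0.00292. Counts over all genes were 1306 with the block in 5xFAD EGFP against wild type and 448 in circRNA against PKR knockout, against 1514 and 670 without it.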

Other observations

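Within the ERK-directed pair of cytoplasmic phosphatases, the ratio of Dusp6 to Dusp7 by FPKM was 2.51 to 3.02 in the 4 PKR knockout libraries and 1.13 to 2.20 in the other 9, so these did not overlap. The ratio of Dusp1 to Dusp7 was 1.19 ± 0.52 in wild type (SD, n = 3), 3.09 ± 0.38 in 5xFAD with EGFP (n = 2), 2.25 ± 0.55 with circRNA (n = 4) and 5.20 ± 0.89 with PKR knockout (n = 4). Dusp8, Dusp10 and Dusp16, the members directed at JNK and p38, together made up 5.44% ± 2.83, 4.71% ± 0.73, 4.23% ± 1.18 and 2.32% ± 0.38 of the summed FPKM of the family in the same order. These values were chosen after they were seen and were not tested.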
